A study of Mus musculus with 7 samples.

Results

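The mRNAs of 10 pluripotency factors were examined in CIRS-seq data of E14 cells, a mouse embryonic stem cell line of strain 129/Ola. The members were taken by symbol, from a list set with earlier results of these data known: Pou5f1, Sox2, Nanog, Klf2, Klf4, Klf5, Esrrb, Zfp42, Tdgf1 and Dppa5a. All 10 symbols were present, with 30 of the 26792 transcripts and 10 of the 13218 genes analysed, and no symbol was absent. CIRS-seq reads where reverse transcriptase (RT) stopped on an RNA, because a base adduct that RT cannot pass ends the cDNA. Dimethyl sulfate (DMS) methylates A and C, and CMCT forms adducts with U and, less, with G, in both cases at positions free of base pairing.

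All cells were grown on gelatin in serum with LIF at 1500 U/ml, lysed in a magnesium-containing buffer and deproteinized with proteinase K at 100 μg/ml for 15 min. The DMS group pooled aliquots treated with 50, 100, 150 and 200 mM DMS for 2 min at 30 °C. The CMCT group pooled aliquots at 10, 20, 25 and 50 mM for 20 min at 30 °C, and the untreated group (NT) pooled the 0 mM aliquots of both reagents. Each group had 2 libraries, described in the study's methods as biological replicates of this 1 line, and a single RNA-seq library was made from untreated cells lysed on the plate. Since a pool mixes the doses, a dose response could not be read from these libraries.

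Pluripotency in mouse embryonic stem cells rests on a small group of transcription factors that bind shared enhancers and sustain each other's expression. Pou5f1 (Oct4) and Sox2 bind DNA as a pair, Nanog stabilizes the undifferentiated state, and Esrrb, Klf2, Klf4 and Klf5 carry much of the output of LIF signalling and of naive pluripotency. Zfp42 (Rex1) is a zinc finger protein used as a marker of the naive state, Tdgf1 (Cripto) is a co-receptor for Nodal, and Dppa5a is a small RNA-binding protein of pluripotent and germ cells.

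Single bases where RT stopped far more often after treatment than in NT are described first. A position was listed when it carried at least 20 stops in both treated replicates and at least 4 times the NT value in each, scaled to the stops of the library and with 1 stop added. By that rule, which sets each reagent against NT alone, 52 positions were listed for DMS and 52 of the 52 lay at A. Of these, 21 were in Pou5f1 and 17 in Tdgf1. For CMCT 15 positions were listed, 6 at U, 7 at C and 2 at A, and 9 of the 15 were in Klf2. The coding stretches around the position with most stops are shown for 4 members in DMS and for Sox2 and Klf5 in CMCT, from the mm9 genome, with the stopping base in capitals.
Pou5f1, DMS: cggaagagaaagcgAactagcattgagaa
Sox2, DMS: ccggcacggccattAacggcacactgccc
Klf2, DMS: gcggccagcctgggAacagagctgctgcg
Dppa5a, DMS: ccctcgtgacccgtAaagatatccccccg
Sox2, CMCT: aactcggagatcagCaagcgcctgggcgc
Klf5, CMCT: acatgaagcgccacCagaactga

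The Pou5f1 stretch (chr17:35646956-35646984, plus strand, exonic) encodes the start of the homeodomain, and its A is the last base of codon 227. That A had 18 and 18 stops in NT, 99 and 106 in DMS and 11 and 12 in CMCT. The DMS counts were far above both other groups, and CMCT lay below NT. In Sox2 (chr3:34550254-34550282, plus strand) the A of codon 311 had 4 and 0 stops in NT, 58 and 43 in DMS and 4 and 1 in CMCT. In Klf2 (chr8:74843511-74843539, plus strand) the A in codon 91 had no stop in either NT library, 39 and 40 in DMS and 5 and 6 in CMCT. The Dppa5a stretch (chr9:78215868-78215896, minus strand) carries an A in codon 9 with 4 and 3 stops in NT, 43 and 62 in DMS and 9 and 8 in CMCT. The 4 positions therefore separated DMS from both other groups without overlap, as the rule required against NT.

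In CMCT, the listed Sox2 position was a C in codon 74 (chr3:34549545-34549573, plus strand), with 3 and 3 stops in NT, 14 and 14 in DMS and 31 and 28 in CMCT. It was higher in both reagents than in NT. The Klf5 position was a C in codon 445, at the end of the coding region (chr14:99712526-99712548, plus strand), with 25 and 8 stops in NT, 32 and 14 in DMS and 166 and 46 in CMCT. The strongest CMCT positions of Klf2, Esrrb and Zfp42 were each a U in the 3′ UTR. The Klf2 one, at chr8:74845141, had 8 and 9 stops in NT, 27 and 24 in DMS and 122 and 118 in CMCT.

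Esrrb, Nanog, Zfp42 and Tdgf1 had listed A positions in DMS too. The single one of Esrrb and 2 of the 3 of Zfp42 lay in the coding region, as did 2 of the 17 of Tdgf1, while the single one of Nanog lay in the 3′ UTR. In Tdgf1 the strongest A, in the 3′ UTR at chr9:110843122, had 6 and 6 stops in NT, 97 and 97 in DMS and 3 and 3 in CMCT. In Nanog, the A at chr6:122663896 had 2 and 2 stops in NT, 27 and 27 in DMS and 2 and 2 in CMCT. Klf4 and Klf5 had no position listed for DMS, and Pou5f1, Nanog, Klf4, Tdgf1 and Dppa5a had none for CMCT. The rule asks for 20 stops in each replicate, so mRNAs with more stops had more positions that could be listed. Positions found once with at least 20 DMS stops in the 2 replicates together numbered 201 in Pou5f1, 145 in Tdgf1, 27 in Klf4 and 9 in Klf5. In CMCT they numbered 192 in Pou5f1 and 107 in Klf2. The part of depth in the listed counts was not tested.

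Near-equal replicate counts such as 97 and 97 were more frequent than a binomial split gives when the share of each replicate is held fixed across positions. Positions of these mRNAs found once, with at least 20 stops in the 2 replicates of a group, were compared. The replicates differed by at most 1 stop at 118 of 584 in NT, 170 of 782 in DMS and 126 of 918 in CMCT. Such a fixed binomial split of the same totals gives 46.9, 106.9 and 61.96. Over all protein-coding genes the shares differing by at most 1 were 19.5%, 21.9% and 16.9%, against 10.3%, 17.3% and 5.41% from the fixed split. At other positions the replicates lay far apart, as at the strongest NT stop of Sox2, a C in the coding region with 391 and 11 stops in NT, 299 and 62 in DMS and 337 and 150 in CMCT. The share of a replicate thus differed between positions, which the fixed split leaves out, so the excess cannot show whether the reads were independent. The cause of the equal counts was not tested. The p-values below rest on the spread between the 2 libraries of a group, estimated over all 3 groups in 1 fit and with information shared across genes. That spread may in part be technical.

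**Figure D1:**
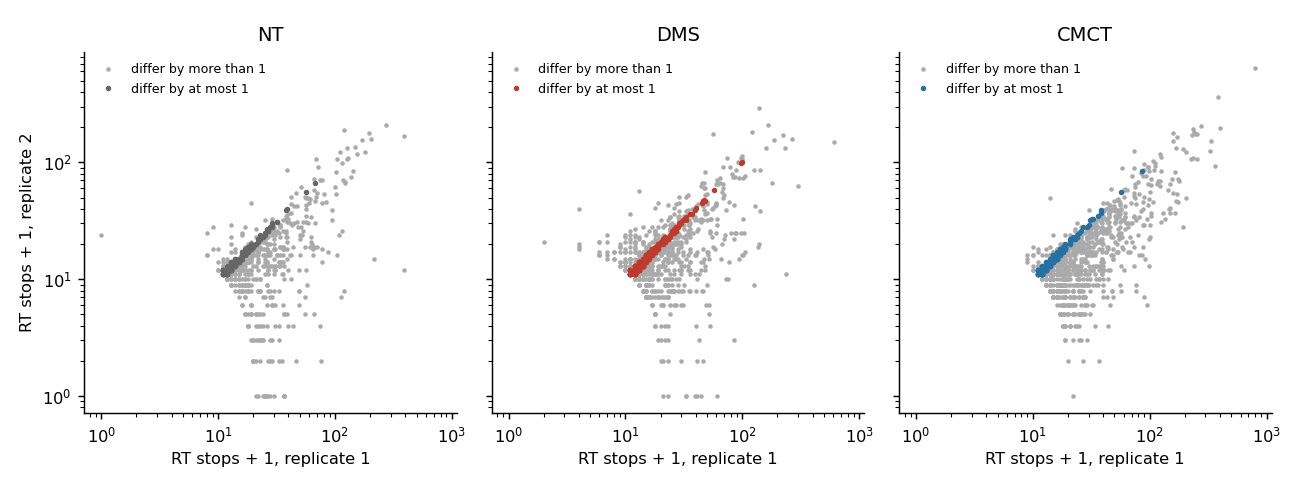
RT stops plus 1 in replicate 1 (x axis, log scale) against replicate 2 (y axis, log scale), in 3 panels for NT, DMS and CMCT. Shown are positions of the 10 mRNAs found once, with at least 20 stops in the 2 replicates. Points in colour (dark grey in NT) differ by at most 1 stop, 118 in NT, 170 in DMS and 126 in CMCT, and form a line along the diagonal inside a much wider cloud.

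How much of each mRNA could be assigned to it differed widely. A position was counted as found once when the 25 bases that follow it, where a read begins, occur a single time in mm9. Klf2 had 99.7% to 99.9% of its stops at such positions, Sox2 96.1% to 96.8% and Esrrb 94.0% to 96.3%. Klf5 followed with 79.5% to 83.4%, Klf4 with 67.5% to 74.7%, Pou5f1 with 54.6% to 61.9%, Tdgf1 with 44.6% to 53.5% and Zfp42 with 42.3% to 50.2%. Dppa5a had 20.8% to 43.0%, at only 100 of its 594 positions, and Nanog 11.8% to 28.1%. Values for Dppa5a thus rest on a small part of that mRNA.

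Nanog differed from the others in how many places of the genome its repeated bases were found in. In the transcript used for position-wise values, 38.4% of its stops were at bases whose following sequence occurs in more than 100 places, up to 38096, against at most 0.239% in the other 9 members. In 50-base windows, its stops per base reached 40.98 to 167.3 in the highest window of each library, centred 1225 or 1275 bases from the 5′ end in the 3′ UTR, against a median over windows of 0.78 to 2.42. The strongest single stop, at a U found in 14824 places, had 334 and 1018 stops in NT. Over all its positions Nanog had 9142 and 15797 stops in the DMS replicates, and at positions found once 1983 and 1871.

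**Figure D2:**
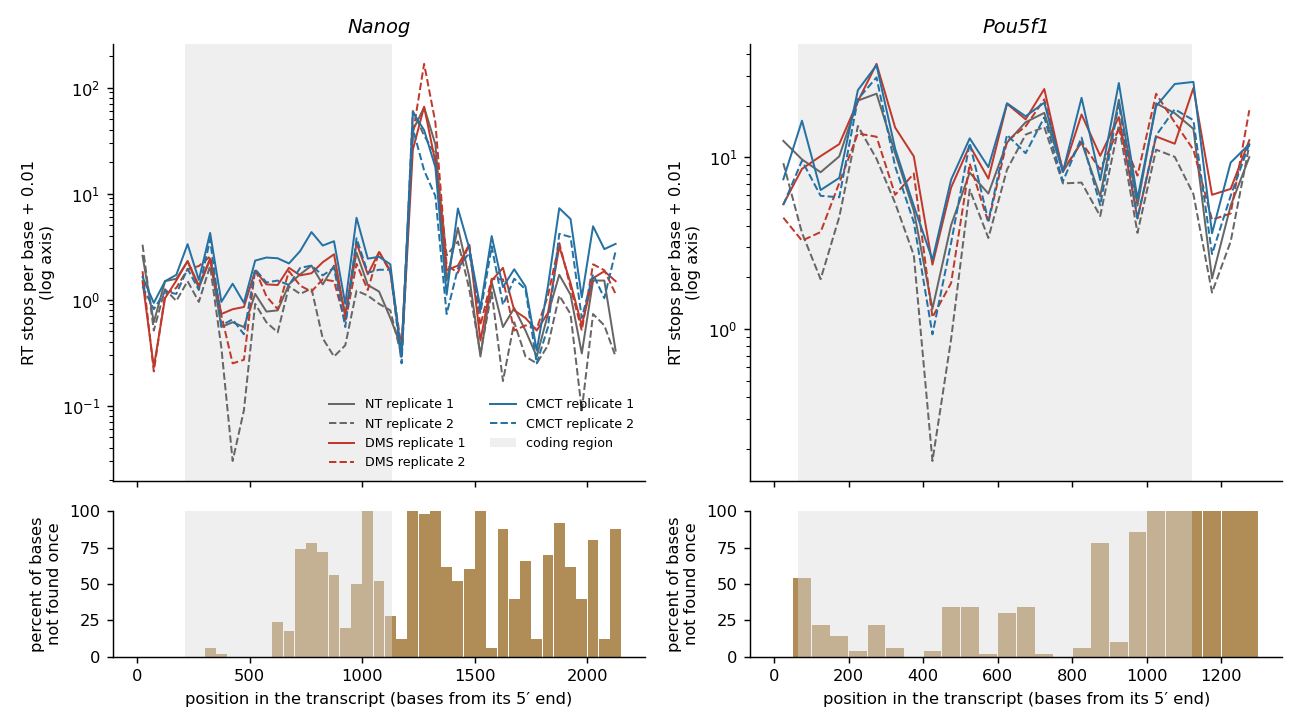
RT stops per base plus 0.01 (upper panels, log axis) in 50-base windows along the Nanog and Pou5f1 transcripts, 1 line per library, above the percent of bases in each window that are not found once (lower panels), with the coding region shaded. Nanog peaks in the 3′ UTR at 40.98 to 167.3 stops per base in windows made up of repeated bases, and Pou5f1 reaches 15.36 to 35.08 with no such peak.

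Gene totals below therefore use positions found once, 10946525 to 20393840 stops per library, which were 6.71% to 10.1% of all stops with each genomic position taken once per gene. Levels are in stops per kilobase of such positions and per 1000000 stops at them. Dppa5a was highest, with 1242 and 1381 in NT, 1561 and 2046 in DMS and 990.0 and 925.1 in CMCT. It ranked between 32 and 53 among 7665 protein-coding genes in the 6 libraries, where the median gene had 14.3 to 21.5. Its CMCT libraries lay below and its DMS libraries above both NT libraries. With edgeR's TMM factors applied, which are used in the tests below, DMS overlapped with NT (1298 and 1885 against 1353 and 1560) and CMCT remained below.

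Among the core factors, Pou5f1 had 418.3 and 345.6 in NT, 534.7 and 369.9 in DMS and 335.7 and 371.2 in CMCT, with all 3 groups overlapping. Sox2 had 182.9 and 113.5 in NT, 221.7 and 165.0 in DMS and 216.2 and 152.9 in CMCT, and the replicates of each group lay further apart than the group means. Nanog had 87.7 and 81.6 in NT, 123.5 and 119.6 in DMS and 107.9 and 109.3 in CMCT, without overlap. With TMM factors, its DMS (102.7 and 110.2) and CMCT libraries (108.0 and 115.9) overlapped, and both groups remained above NT (95.6 and 92.1). In the order of NT means, Tdgf1 (231.5 ± 8.65, SD, n = 2) stood below Pou5f1 (382.0 ± 51.4) and above Zfp42 (190.6 ± 30.5), without overlap of their NT libraries. Zfp42 and Sox2 overlapped, as did Sox2 and Klf2 (101.8 ± 18.8). Esrrb (58.1 ± 9.48) overlapped with Klf4 (44.1 ± 16.4), and Klf4 with Klf5 (39.9 ± 2.80), the lowest member.

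In RNA-seq, counting all reads, Dppa5a was first as well, at 315.5 reads per kilobase of exons per 1000000 reads (RPKM), followed by Zfp42 at 203.3, Pou5f1 at 107.1, Tdgf1 at 81.8, Nanog at 79.5 and Sox2 at 54.3. Esrrb had 29.6, Klf4 10.7, Klf5 9.46 and Klf2 9.26. Protein-coding genes with a read had a median of 1.09, and with 1 library these values have no replicate check. All 31857551 alignments spanned 50 bases, so none crossed an intron, and reads over splice junctions are missing from these values. The part this has in the levels of genes with many short exons was not tested. Over the 10 members Spearman's rho between RPKM and NT stops was 0.82, given as a description since the stops and reads come from the same line and both are divided by length. With only reads whose first 25 bases occur once, the basis nearest to that of the stops, rho was 0.70 and Zfp42 (547.2) stood above Dppa5a (525.2). Klf2 had few RNA-seq reads for its stops. Counting all reads it was the lowest member, at rank 3238 of 22380, and it ranked 501 and 580 of 7665 by NT stops. With reads found once, Klf4 (21.7) was lower than Klf2 (24.9), which was close to Klf5 (25.1). The ratio of RPKM to NT stops was 0.0909 for Klf2 and between 0.237 (Klf5) and 1.07 (Zfp42) for the other 9. With reads found once it was 0.245 for Klf2, again the lowest, and between 0.400 (Dppa5a) and 2.87 (Zfp42) for the others. Klf2 also had the highest GC content of the 10 transcripts, at 61.6%, followed by Klf5 at 60.3%, and the part of GC content in these ratios was not tested. In bulk libraries, fewer cells with an mRNA and less mRNA per cell cannot be told apart.

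**Figure D3:**
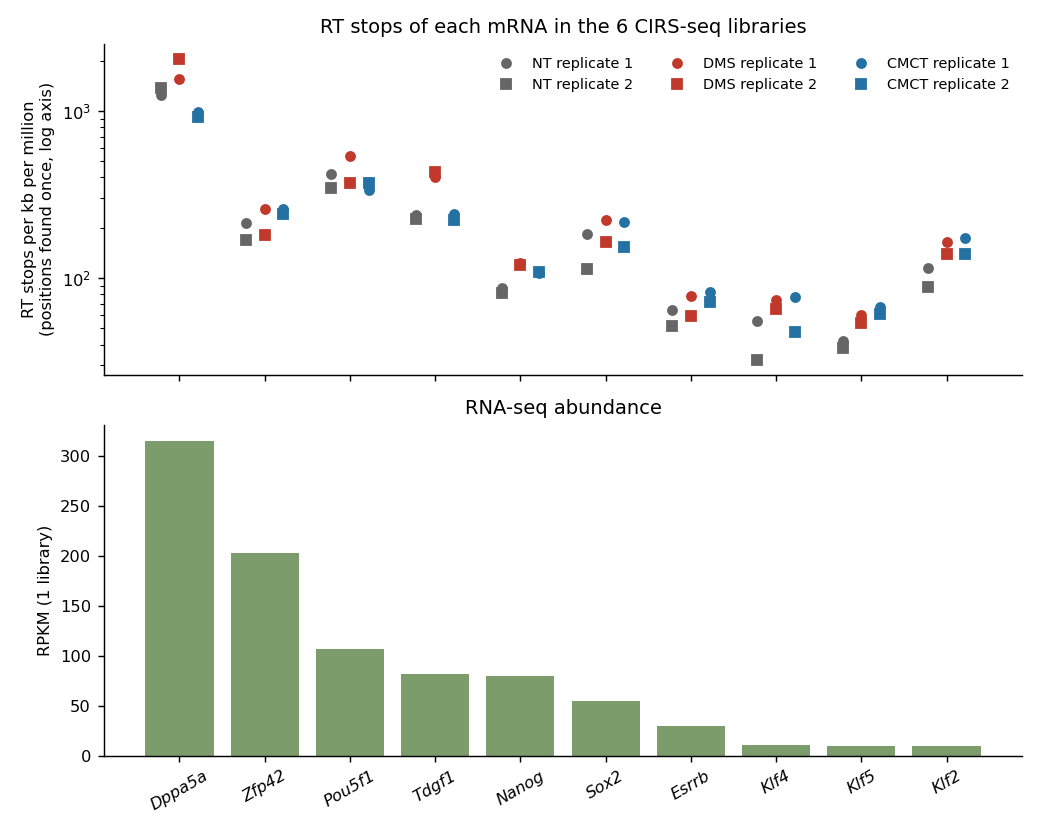
Upper panel: RT stops per kilobase per 1000000 stops (log axis) of each mRNA, 1 point per library, circles for replicate 1 and squares for replicate 2, coloured by group. Lower panel: RPKM in the single RNA-seq library, counting all reads, from Dppa5a at 315.5 to Klf2 at 9.26. Klf2 has more stops than Klf4, Klf5 and Esrrb in every group, and with reads found once Klf4 is below it in RNA-seq.

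The label of the cells was checked in the same library. Markers of other lineages were lower than every member: 18 of the 19 had an annotation, and these summed to 11.1 RPKM, against 900.5 for the 10 members. The highest was Gata6, a primitive endoderm factor, at 4.44, followed by Gata4 at 2.16, the neural marker Nes at 1.15 and Sox17 at 1.02. Gata6, Gata4 and Nes were above the median of 1.09 for protein-coding genes with a read. Of the 19 markers, 6 were among the genes of the CIRS-seq data. The mesoderm gene T had 0.0970, the trophoblast factor Cdx2 0.218, the fibroblast collagen Col1a1 0.0556, and Afp was at 0 reads.

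The first comparison asked whether treatment moved the total of stops on each mRNA. With edgeR's quasi-likelihood test and Benjamini-Hochberg adjustment over all genes, 0 of 10 members passed an adjusted p of 0.05 in DMS against NT, and 14.3% of 11539 genes did. In CMCT against NT it was 0 of 10, with 8.71% of all genes called. At an unadjusted p below 0.05 (edgeR) the count was 1 member for each reagent, beside 3610 (DMS) and 3250 (CMCT) of 11539 genes. DESeq2 likewise called 0 in both. It had 0 and 3 members at an unadjusted p below 0.05, beside 3952 and 3358 genes. The largest DMS value was that of Tdgf1, with TMM-scaled levels of 258.9 and 254.5 stops per kilobase per 1000000 stops in NT and 335.3 and 397.1 in DMS, a fitted log2 ratio of 0.51 (standard error 0.20, adjusted p = 0.144, edgeR). For CMCT it was Klf5, with 45.7 and 42.9 in NT and 67.0 and 64.9 in CMCT on the same scale, a fitted log2 ratio of 0.57 (standard error 0.21, adjusted p = 0.131, edgeR). Dppa5a had the lowest CMCT value, a log2 ratio of -0.56 (adjusted p = 0.181, edgeR) over its 100 positions found once. The direction turned to 0.09 with all positions and 0.28 with coding positions. The median over members was 0.15 for DMS and 0.27 for CMCT, against 0.11 and 0.09 over all genes tested. The standard errors ran to 0.31, for Klf4. Since log2 ratios as large as 0.57 (Klf5 in CMCT) did not pass, differences of that size can be missed with these libraries.

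Of 39 further pluripotency genes, 26 could be tested. In DMS 0 were higher and 2 lower than in NT, where 10.5% of all genes were higher and 3.76% lower. In CMCT 0 passed in either direction, beside 6.88% higher and 1.83% lower of all genes. With all positions 1 was higher and 1 lower in CMCT, beside 1984 and 1843 of 13216 genes. With DESeq2 or the replicate block 1 was higher in CMCT, beside 969 and 1143 of 11539 genes. The DMS count of lower genes was 6 with coding positions, beside 164 of 5904 genes in all, and 4 with all positions, beside 1656 of 13216. It was 4 with DESeq2, beside 706 of 11539, and 1 with DESeq2's size factors in edgeR, beside 310 of 11539. Both that fell in DMS encode chromatin-associated proteins of stem cells, Utf1 (log2 ratio -0.79, adjusted p = 0.0420, edgeR) and Jarid2 (-0.75, adjusted p = 0.0479), a partner of the Polycomb complex. These calls depended on single libraries. Without NT replicate 1, NT replicate 2, DMS replicate 1 or DMS replicate 2, 0 of the 26 passed, and without CMCT replicate 1 or CMCT replicate 2, 4 were lower. With positions of equal replicate counts left out, 0 of the 26 passed. Across all genes 0 passed in DMS without either NT replicate, with 2809 and 2177 at an unadjusted p below 0.05 (edgeR). Among 2689 other genes of at least the members' lowest abundance, the 3 whose pattern over the 6 libraries lay nearest to the members' mean pattern were Cdk16, a kinase (distance 0.0454 in log2 units), Sdhb, a subunit of succinate dehydrogenase (0.123), and Rhot1, a mitochondrial GTPase (0.123).

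The second comparison asked at which bases RT stopped within each mRNA, a share that does not depend on the mRNA's level or the library's depth. In DMS, the share at A rose in every member: tested alone, it passed in 10 of 10 (edgeR's quasi-likelihood test, adjusted over all genes), as in 69.5% of genes. Pou5f1 had 9.76% and 12.0% of its stops at A in NT, 26.4% and 40.8% in DMS and 9.16% and 9.85% in CMCT, with A at 22% of its positions. Nanog had 13.4% and 12.3% in NT, 31.3% and 34.7% in DMS and 17.5% and 16.9% in CMCT. Dppa5a, over its 100 positions, had 4.88% and 5.89% in NT, 12.9% and 14.4% in DMS and 5.75% and 5.59% in CMCT. In 10 of 10 members both DMS libraries were above both NT libraries, as in 88.3% of 7579 genes with at least 100 stops in every library. NT stops were poor in A relative to its share of positions in all 10, and DMS stops were above that share in every member but Dppa5a.

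C did not behave as A did. Its share of stops was above both NT libraries in 0 of 10 members in DMS and below both in 3, Nanog, Zfp42 and Tdgf1. Of all genes, 12% were above and 39.2% below. Since shares sum to a whole, a rise at A lowers the other bases. Scaled to the stops of the library, the DMS to NT ratio at C had a median of 0.37 over members (log2, from -0.05 to 0.70), but -0.32 when scaled to the stops at the other bases of the same gene. At A the library-scaled median was 1.78 (1.47 to 2.38). For all genes pooled, the values were -0.02 at C and 1.34 at A. That pool sums the stops of all genes and is not a median over genes, and no TMM factors entered these ratios. In the test of the A share alone, the median log2 odds ratio was 1.82 in the members and 1.82 over all genes. The shares at U and at G were below both NT libraries in 10 of 10 members each, beside 80.7% and 67.1% of genes.

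The test of the combined share at A and C, the bases DMS modifies, was passed in the upward direction by 10 of 10 members (edgeR's quasi-likelihood test of base class by treatment, adjusted over all genes), and by 61.4% of 11374 genes. The log2 odds ratio ran from 0.70 in Dppa5a (standard error 0.17, adjusted p = 0.0224) to 1.30 in Klf5 (standard error 0.31, adjusted p = 0.0205), and the smallest adjusted p was that of Nanog (0.92, standard error 0.11, adjusted p = 0.00365). The median over members was 0.94, beside 1.02 over all genes, so the members were near the series as a whole. With 1 library left out, 7 or 8 of the 10 still passed and each log2 odds ratio stayed above 0. Of the other pluripotency genes, 25 of 26 passed upward, and Dppa2, at 0.82, missed with an adjusted p of 0.0501.

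All 10 members had a higher A share in DMS replicate 2 than in DMS replicate 1, as did 85.2% of the 7579 genes. The gap was largest in Zfp42, at 45.2% against 30.0%, and smallest in Dppa5a, at 14.4% against 12.9%. In NT, replicate 2 was higher in 8 of the 10, beside 66.3% of genes, and in CMCT in 8 of the 10, beside 65% of genes.

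In CMCT the U share was the one most often above NT. Zfp42 had 30.6% and 29.3% of its stops at U in NT and 43.8% and 45.1% in CMCT. Esrrb had 31.2% and 32.9% in NT and 44.2% and 43.4% in CMCT, and Sox2 had 24.3% and 27.7% in NT and 37.0% and 37.4% in CMCT. Both CMCT libraries were above both NT libraries in 8 of 10 members and in 75.2% of genes. The exceptions were Klf4, with 23.6% and 29.8% in NT and 29.2% and 31.5% in CMCT, and Klf5, with 26.8% and 37.1% in NT and 29.8% and 33.5% in CMCT, whose wide NT spread covers the CMCT values. The G share was below both NT libraries in 6 of 10 members and the C share in 7, against 52.7% and 50.1% of genes.

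For the combined share at G and U, 0 of 10 members passed in CMCT, against 8.7% of genes in the upward direction. At an unadjusted p below 0.05 the edgeR count was 5 of 10 members, beside 3284 of 11374 genes in either direction. No second tool was run on the base shares. The largest value was that of Zfp42, a log2 odds ratio of 0.63 (standard error 0.23, adjusted p = 0.167, edgeR), and Klf5 had -0.11. Testing U alone gave 2 of 10, Esrrb (0.73, standard error 0.12, adjusted p = 0.0269) and Sox2 (0.76, standard error 0.14, adjusted p = 0.0311), where 16.9% of genes passed upward. Among the other pluripotency genes, the TGF-β family ligand Gdf3 passed for G and U together (0.57, adjusted p = 0.0386, edgeR's quasi-likelihood test). It did not pass with the replicate number as a block, with positions of equal replicate counts left out, or without NT replicate 1, NT replicate 2, CMCT replicate 1 or CMCT replicate 2.

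**Figure D4:**
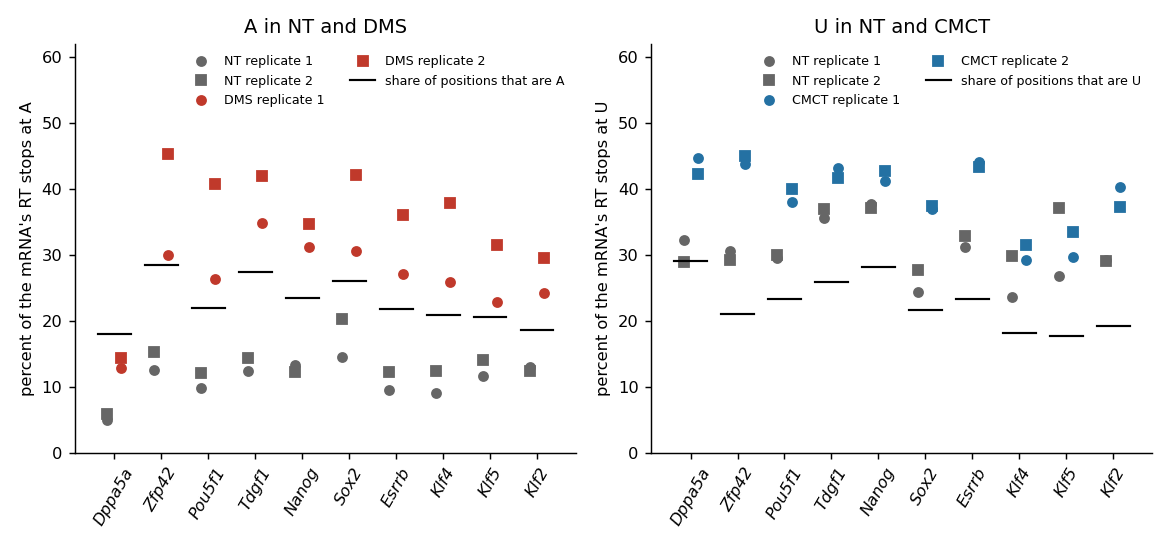
Percent of each mRNA's RT stops that lie at A in NT and DMS (left) and at U in NT and CMCT (right), 1 point per library with circles for replicate 1 and squares for replicate 2. Horizontal bars give the base's share of the positions. The A share in DMS is above NT in all 10 members, and the U share in CMCT overlaps with NT in Klf4 and Klf5.

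Reactivity combines both reagents into a value from 0 to 1 for each base: the log2 ratio of treated to NT stops, each relative to the transcript's mean with 1 stop added, set to 0 where negative, capped at the transcript's 90th percentile, and the larger of DMS and CMCT. It was computed on 1 transcript per gene and uses all positions. Averaged in windows of 10 bases, the 2 replicates correlated with a Pearson r from 0.64 in Pou5f1 (263 windows) to 0.85 in Klf2 (363 windows), with a median of 0.78 over members. Windows overlap and share the equal counts described above, so these are descriptions. With the NT controls exchanged between replicates, the median was 0.69, with the lowest values in Dppa5a (0.46) and Sox2 (0.48). At single bases it was 0.56.

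The 5′ UTR of the Esrrb transcript held 2 treated stops in all, at 1 of its 271 bases, so its value of 0.00369 rests on almost no data. With Esrrb included, the coding region was more reactive than the 5′ UTR in 9 of 10 members. So it was in 87.2% of the 4041 covered genes (at least 1 treated stop per base) with all 3 regions, sparse 5′ UTRs included. Of the 9 members with data, it was 8. Bases without a treated stop count as 0. In Klf4, 212 of 595 5′ UTR and 828 of 1452 coding bases had one, in Pou5f1 59 of 63 and 1017 of 1059. The part of coverage was not tested. Pou5f1 had 0.148 in the 5′ UTR and 0.389 in the coding region, from replicate values of 0.198 and 0.143 against 0.388 and 0.384. Klf2 had 0.162 and 0.331, and Nanog 0.256 and 0.449. In Nanog the transcript mean used for scaling includes the repeated 3′ UTR bases. Its 3′ UTR held 6822 and 13782 stops in DMS, against 1565 and 1268 in the coding region. The part of this in the Nanog values was not tested. Zfp42 was the exception, with 0.405 in the 5′ UTR, 0.369 in the coding region and 0.346 in the 3′ UTR. Its 5′ UTR was above its coding region in each replicate (0.394 against 0.361, and 0.406 against 0.348). At positions found once, which are 37.3% of that 5′ UTR, Zfp42 too had the coding region above the 5′ UTR.

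Against the 3′ UTR the members were more mixed. The coding region was higher in 7 of 10, beside 90.4% of genes, and lower in Sox2 (0.378 against 0.415), Klf4 (0.335 against 0.371) and Tdgf1 (0.377 against 0.403). Sox2 and Klf4 kept this order in each replicate with the narrowest gap in Sox2 replicate 2 (0.359 against 0.360), and Tdgf1 had 0.375 against 0.410 in replicate 1 and 0.422 against 0.376 in replicate 2. Pou5f1, 1 of the 7, had 0.388 against 0.411 in replicate 1 and 0.384 against 0.303 in replicate 2. The other 6 had the coding region higher in each replicate. Klf5 showed the widest gap in the other direction, 0.362 against 0.154, over a 3′ UTR of 76 annotated bases. Of these, 51 entered, and only 16 had a treated stop, with 8 and 8 stops in DMS and 7 and 3 in CMCT. The median 3′ UTR was 0.360 in the members and 0.237 over 5005 covered genes, while coding regions were at 0.378 and 0.351. The members were more deeply covered, with 3.78 to 51.2 treated stops per base against a median of 2.67 in those genes. Bases without a treated stop count as 0, and the part of coverage in the difference was not tested. With positions found once, the coding region was higher in 4 of the 8 members whose 3′ UTR had enough such positions. The 3′ UTRs of Pou5f1 and Dppa5a had none, so their values above rest on repeated bases alone.

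Within codons, the first base had the highest mean reactivity in 4 of 10 members (6 in replicate 1 and 4 in replicate 2), beside 63.0% of 4969 genes. Esrrb had 0.408, 0.424 and 0.318 from the first to the third codon base, with the third lowest in each replicate. Dppa5a had 0.411, 0.504 and 0.378, and the middle base was the highest in both replicates. Only 14.3% of the Dppa5a coding positions were found once, and 73.4% of the stops on its transcript lay at repeated bases. These codon values thus rest mostly on stops that could not be assigned to Dppa5a alone.

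Last, reactivity was set beside a structure prediction that used sequence alone. Bases with a predicted probability of at least 0.7 of being unpaired were more reactive than those at 0.3 or below in 10 of 10 members. The same held in 99.6% of 235 genes (every 10th taken), with a coverage cutoff of 3 treated stops per base. The 2 sets of bases were not matched for A, C, G and U, and the part of base composition was not tested. The difference ran from 0.0843 in Tdgf1 (0.415 against 0.330) and 0.0966 in Nanog (0.459 against 0.362) to 0.194 in Klf4 (0.441 against 0.247). In Klf4 it was 0.196 in replicate 1 and 0.152 in replicate 2, and in Tdgf1 0.0747 and 0.106. The median difference was 0.152 in the members and 0.145 in those genes.

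**Figure D5:**
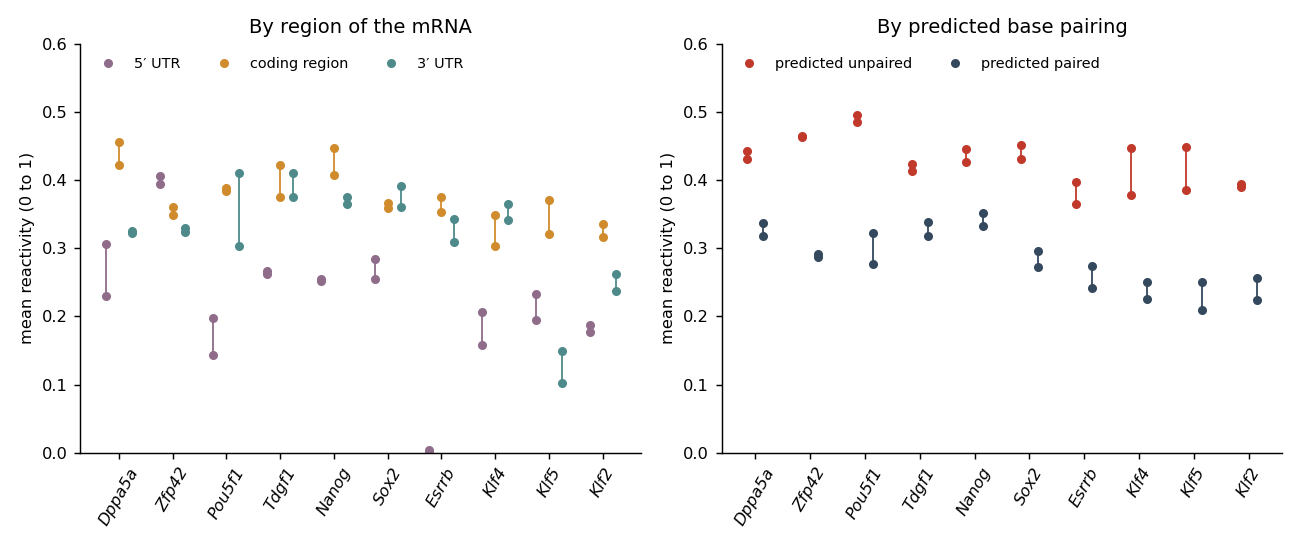
Mean reactivity (0 to 1) of each mRNA by region (left: 5′ UTR, coding region, 3′ UTR) and by predicted pairing (right: probability unpaired at least 0.7, or at most 0.3), 1 point for each replicate joined by a line. Bases predicted unpaired are above those predicted paired in all 10 members, and the 5′ UTR is the lowest region in all but Zfp42 and Klf5. The Esrrb 5′ UTR, near 0, held only 2 treated stops.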

How the data were processed

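The 6 CIRS-seq libraries and 1 RNA-seq library were deposited as text. CIRS-seq files hold counts of RT stops per transcript base, made by the authors from reads mapped to mm9 carrying E14 single-base variants. Per the labels' processing notes Bowtie 1.0.0, FastQC 0.10.1 and bedtools 2.17.0 were used. The deposited RNA-seq file lists alignments of 50 bases, for which TopHat2 2.0.6 is named. The 3 files combining replicates were not used. The setting for reads that map to several places is not given in the sources used here, and stops are listed at bases found in many places. The 10 genes and the lists were chosen with earlier results of these data known.

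A genomic position shared by several transcripts of a gene entered a single time, at its highest count, and was kept when its next 25 bases occur once in mm9 (across a splice junction, nowhere in mm9 and in no other gene). For gene totals the test was that of edgeR 4.0.16 under R 4.3.3 (TMM, filterByExpr, quasi-likelihood, all 3 groups in 1 fit, 0.05 after Benjamini-Hochberg adjustment). Base shares were tested in edgeR with 2 columns per library and a library term. Both fits were tested on simulated data. The RNA-seq values count reads with their midpoint in exons of 1 gene, 22286799 of 31857551 alignments (70.0%). Transcripts for position-wise values had the longest coding region. Pairing was predicted with RNAplfold of ViennaRNA 2.7.2 (window 200, span 150, probabilities 0.7 and 0.3). Base ratios used a pseudocount of 0.5. All 10 members were named, other pluripotency genes only past the threshold, at most 3 in each direction, and the 3 most alike genes by Euclidean distance. Alternatives were all positions, coding positions, DESeq2 1.42.0 and its size factors, no filter, a replicate block, each library left out and other reactivity settings. Leaving out positions with equal replicate counts, and the accounts of equal counts, TMM-scaled levels, codon bases, non-overlapping shares, strongest stops and repeated positions, were added after seeing the data. A result of the G and U share test among the other pluripotency genes is not reported here.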

Additional observations from a re-analysis of the deposited data

How the results depend on the processing

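For totals of stops, 0 of 10 members passed under every alternative run, for each reagent, with all positions, coding positions, DESeq2's size factors, DESeq2, no filter or 1 library left out, and also when positions with equal replicate counts were left out. Over all genes the DMS calls moved from 1651 to 3485 with all positions, 378 with coding positions, 937 with DESeq2's size factors, 0 without equal positions and 0 to 3588 with 1 library left out (0 without NT replicate 1 or 2, 3588 without CMCT replicate 1). The CMCT calls moved from 1005 to 3827, 175, 518, 0 and 17 to 3042, and to 1872 with DESeq2. TMM left the median gene at 0.11 in DMS on the log2 scale, against 0.00 with DESeq2's size factors, where the members' median was 0.03. In CMCT it was 0.09 against -0.01, with the members at 0.17. DESeq2 called 1181 genes higher and 706 lower in DMS, against 1217 and 434, and 969 and 903 in CMCT, against 794 and 211. The raised A and C share in DMS held in 10 of 10 members in the other alternatives and in 7 to 8 with 1 library left out (the lone sample assumed to vary like the other groups), 7 without NT replicate 2 or DMS replicate 2. Sox2 and Dppa5a lost the call in 4 of 6 such fits (highest adjusted p 0.111 and 0.105, edgeR), Klf4, Klf5 and Zfp42 in 2. The G and U share gave 2 members for U alone, and 0 to 1 with 1 library left out (Zfp42, without either DMS replicate). Over all genes its calls went from 1240 to 1 without equal positions and to 190 to 1253 with 1 library left out.

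The median log2 ratio at A in DMS was 1.93 with all positions and 1.72 to 1.85 by replicate, at C -0.32 per stops at the other bases and 0.22 to 0.49 by replicate, so its sign depends on the scaling. In CMCT, U gave 1.097 with all positions and 0.62 to 0.79 by replicate, and G 0.27 with all positions, -0.33 per stops at the other bases and 0.026 to 0.089 by replicate, so its sign depends on the scaling too. Median reactivity (Esrrb included, whose 5′ UTR lacks data), in the order 5′ UTR, coding, 3′ UTR, was 0.189, 0.342 and 0.315 with a pseudocount of 5, 0.167, 0.286 and 0.254 with preferred bases alone, and 0.218 for the 5′ UTR at positions found once. By replicate it was 0.213 to 0.244, 0.356 to 0.373 and 0.326 to 0.354. The coding region was above the 3′ UTR in 4 of the 8 members with enough positions found once, and in 6 to 8 members by replicate. The median difference by predicted pairing was 0.0916 with the minimum free energy structure, 0.192 with a pseudocount of 5 and 0.147 to 0.155 by replicate. Window agreement was 0.556 at single bases and 0.691 with crossed controls. Median RPKM was 66.9, and 183.8 from reads whose first 25 bases occur once, a unit with other denominators. The causes were not tested.

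The replicate block gave 0 of 10 members for stops with each reagent, 10 for the A and C share and 0 for the G and U share, and changed no member's call, while Gdf3 lost its call for the G and U share. Over all genes it called 2298 against 1651 (DMS stops), 1462 against 1005 (CMCT stops), 6855 against 7170 (A and C share) and 709 against 1240 (G and U share). Deviations of same-numbered libraries correlated at 0.42 (NT and DMS), -0.00304 (NT and CMCT) and 0.03 (DMS and CMCT). Same-numbered NT and DMS libraries thus shared part of their deviations, and CMCT libraries shared almost none with either.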
